A study of Mus musculus with 2 samples.

Results

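The platelet-derived growth factor (PDGF) genes are 4 ligand genes, Pdgfa, Pdgfb, Pdgfc and Pdgfd, and 2 receptor genes, Pdgfra and Pdgfrb. They were chosen by symbol, and all 6 were found among the 43346 Ensembl genes of the deposited quantifications. RNA came from whole hearts of embryos of the B6NCrl strain at embryonic day 13.5, healthy and without treatment, with males and females pooled. The study holds 1 group of 2 biological replicates, each sequenced as 1 total RNA library, and no other condition. The labels list both tissue samples under the same donor entry. The values therefore describe levels and the spread between these libraries, and no test between conditions exists.

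PDGF ligands are secreted dimers that bind receptor tyrosine kinases on neighbouring cells. PDGF-A and PDGF-C act mainly through PDGF receptor alpha, while PDGF-B acts through both receptors and PDGF-D mainly through receptor beta. In developing organs the ligands typically come from epithelial, endothelial or muscle cells and the receptors lie on mesenchymal cells. In the heart, receptor alpha is known for its place in epicardium-derived fibroblasts and neural crest mesenchyme, and receptor beta for its place in pericytes and vascular smooth muscle.

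Coordinates are those of GRCm38, the assembly also called mm10. Pdgfa (ENSMUSG00000025856.11) lies at chr5:138976014-138997370 on the minus strand and Pdgfra (ENSMUSG00000029231.11) at chr5:75152292-75198215 on the plus strand. Pdgfb (ENSMUSG00000000489.6) lies at chr15:79995874-80014977 on the minus strand. The plus strand holds Pdgfc (ENSMUSG00000028019.5) at chr3:81036416-81214040 and Pdgfd (ENSMUSG00000032006.10) at chr9:6168584-6378850. The encoded ligands have 196 residues (Pdgfa), 241 (Pdgfb), 345 (Pdgfc) and 364 (Pdgfd), and the receptors 1089 (Pdgfra) and 1099 (Pdgfrb). Pdgfa and Pdgfb were 50.5% identical over 190 aligned residues, Pdgfc and Pdgfd 46.5% over 331, and the receptors 47.0% over 1066. These pairs are the classical ligands, the ligands with an added CUB domain that must be cut off, and the receptors.

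The exon stretches below are shown because annotated transcripts of the ligand genes differ by them, and the transcript shares given further on turn on them. They were read from the GENCODE M21 transcript sequences and are written 5′ to 3′ on the gene's strand. In the first, capitals mark exon 6 of Pdgfa (chr5:138978622-138978690, 69 bases), and the lower case letters are the last 30 bases of exon 5. In the second, which is the 59-base exon 2 of Pdgfc-202 (chr3:81131018-81131076), capitals mark the in-frame stop codon. In the third, capitals mark the 18 bases that Pdgfd-202 holds at the start of its exon 2 (chr9:6288472-6288489), between 30 bases of flank on each side.
Pdgfa exon 6: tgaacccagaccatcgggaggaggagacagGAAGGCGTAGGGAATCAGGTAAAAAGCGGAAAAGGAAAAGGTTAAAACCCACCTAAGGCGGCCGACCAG
Pdgfc exon 2: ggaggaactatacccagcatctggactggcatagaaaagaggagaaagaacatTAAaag
Pdgfd exon 2 start: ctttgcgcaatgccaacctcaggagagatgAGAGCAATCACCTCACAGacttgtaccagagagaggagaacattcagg

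Exon 6 of Pdgfa encodes the basic tail, or retention motif, that holds the long form of PDGF-A at the cell surface and matrix. With it the protein has 211 residues, of which the last 18 differ from the 196-residue form, and 11 of those 18 are lysine or arginine. The Pdgfc exon ends the reading frame after 57 codons. The Pdgfd stretch adds 6 residues, to give 370 in place of 364.

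All 6 genes were detected. Each reached 1 TPM in both libraries, as did 57.3% of the 21474 protein-coding genes. Counting coding transcripts only, 5 of the 6 did, since Pdgfc was then at 0.82 TPM in replicate 1. TPM, the unit used throughout, is a transcript level per length within a library. With each value come the deposited bounds of its credibility interval, whose level is not stated in the files' headers. In bulk tissue, fewer cells of a type and less RNA per cell cannot be told apart.

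Pdgfa, the ligand of receptor alpha, was the highest of the family. It stood at 30.77 TPM in replicate 1 (bounds 28.7 to 33.4) and 34.24 TPM in replicate 2 (32.2 to 37.5), a mean of 32.5 ± 2.5 TPM (SD, n = 2). The libraries lay close together, with overlapping bounds, and estimated counts of 1428.60 and 1517.32 stood behind them. In rank order, 17.0% of protein-coding genes were higher. The gene held 41.8% of the summed TPM of the family in replicate 1 and 46.5% in replicate 2.

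Pdgfb, which endothelial cells and platelets make and which recruits pericytes, was the lowest. It was at 1.88 TPM in replicate 1 (bounds 1.57 to 2.15) and 1.77 TPM in replicate 2 (1.45 to 2.04), a mean of 1.82 ± 0.078 TPM (n = 2). The values rest on 155 and 137 reads, the fewest of the family, and do not differ beyond their bounds. Of protein-coding genes, 54.1% were higher.

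Pdgfc and Pdgfd, the ligands that are secreted in a latent form, lay between. Pdgfc was at 3.87 TPM in replicate 1 (bounds 3.40 to 4.24, 324.82 estimated reads) and 3.73 TPM in replicate 2 (3.25 to 4.10, 300 reads), with a mean of 3.80 ± 0.099 TPM (n = 2). Pdgfd was at 6.47 TPM (5.80 to 6.99, 514 reads) and 6.46 TPM (5.76 to 7.02, 467 reads), with a mean of 6.46 ± 0.0071 TPM (n = 2). In TPM, each gene gave nearly the same level in both libraries. The 2 genes did not overlap with each other or with Pdgfb in either library.

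The receptors, tyrosine kinases that dimerise on ligand binding, lay between Pdgfa and the other ligands. Pdgfrb (ENSMUSG00000024620.7) is on the plus strand at chr18:61045150-61085061. Pdgfra was at 14.62 TPM in replicate 1 (bounds 13.8 to 14.9) and 12.04 TPM in replicate 2 (11.3 to 12.3), a mean of 13.3 ± 1.8 TPM (n = 2), from 2764 and 2129 reads. Pdgfrb was at 16.04 TPM (15.1 to 16.4) and 15.47 TPM (14.5 to 15.8), a mean of 15.8 ± 0.40 TPM (n = 2), from 2494 and 2250 reads. Pdgfrb was the higher receptor in both libraries. The bounds of Pdgfra did not overlap between the libraries, which held for 1 of the 6 PDGF genes and for 32.2% of the 13766 genes whose counts averaged 50 or more. Of protein-coding genes, 30.5% were above Pdgfra and 28.0% above Pdgfrb. The median level of detected protein-coding genes was 15.1 TPM, so the receptors lay near it, Pdgfa above it, and the other ligands below it.

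**Figure D1:**
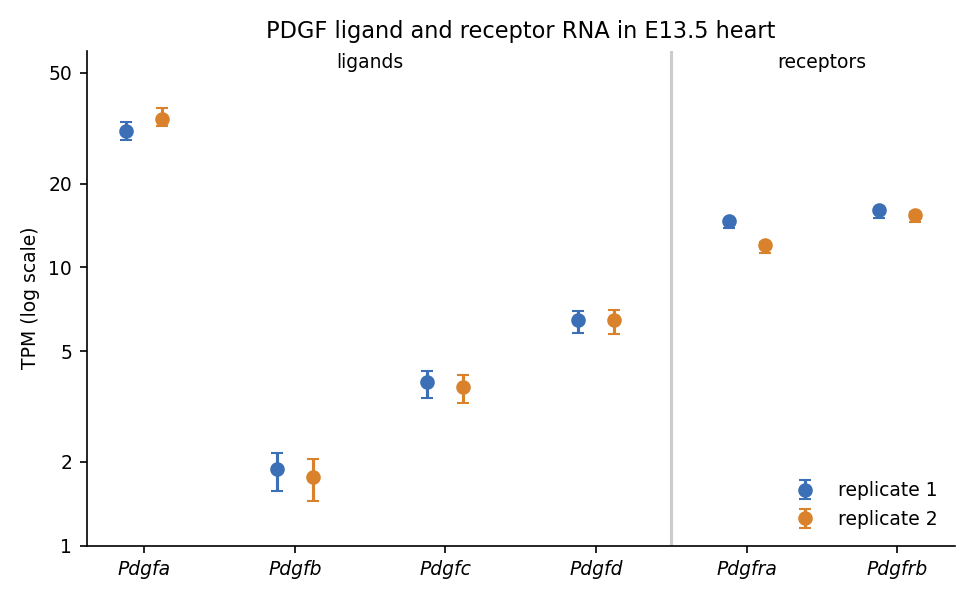
TPM on a log axis for the 4 ligand and 2 receptor genes, 1 point per library, with bars for the deposited credibility bounds. Pdgfa sits highest, at 30.77 and 34.24 TPM, Pdgfb lowest, at 1.88 and 1.77, and Pdgfra has bars that do not meet between the libraries.

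The order of levels was the same in both libraries, from Pdgfa through Pdgfrb, Pdgfra, Pdgfd and Pdgfc to Pdgfb. Neighbours in this order were separated. In all 15 pairs of the 6 genes, both libraries gave the same direction and the bounds overlapped in neither. The closest neighbours were the receptors, with Pdgfrb over Pdgfra by 1.10-fold in replicate 1 and 1.28-fold in replicate 2 (log2 ratio 0.25 ± 0.16, n = 2). In replicate 1 the upper bound of Pdgfra, 14.9 TPM, nearly met the lower bound of Pdgfrb, 15.1 TPM. The widest pair was Pdgfa over Pdgfb, 16.4-fold and 19.3-fold apart (log2 4.15 ± 0.17).

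Ligand to receptor ratios differed between the alpha and the beta side. Pdgfa exceeded Pdgfra by 2.10-fold in replicate 1 and 2.84-fold in replicate 2 (log2 1.29 ± 0.31, n = 2). With Pdgfc added, the ligands that act mainly through receptor alpha exceeded Pdgfra by 2.37-fold and 3.15-fold. The Pdgfc part is that of the whole gene, of which the transcript encoding the full ligand held only 0.82 and 1.16 TPM. On the beta side the direction was the opposite. Pdgfrb exceeded Pdgfb by 8.53-fold and 8.74-fold and Pdgfd by 2.48-fold and 2.39-fold. Pdgfb and Pdgfd together came to 0.521 of the Pdgfrb level in replicate 1 and 0.532 in replicate 2 (log2 -0.93 ± 0.02). The beta ratios were nearly equal in the libraries, and the alpha ratios were both higher in replicate 2, where Pdgfra was lower.

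Summed, the ligands came to 43.0 TPM in replicate 1 and 46.2 TPM in replicate 2, and the receptors to 30.7 and 27.5 TPM. The ligands therefore exceeded the receptors by 1.40-fold and 1.68-fold (log2 0.62 ± 0.18, n = 2), and Pdgfa supplied most of that sum. The classical ligands Pdgfa and Pdgfb together exceeded Pdgfc and Pdgfd together by 3.16-fold and 3.53-fold. Ratios of RNA say nothing of the ratio of proteins, which was not measured.

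**Figure D2:**
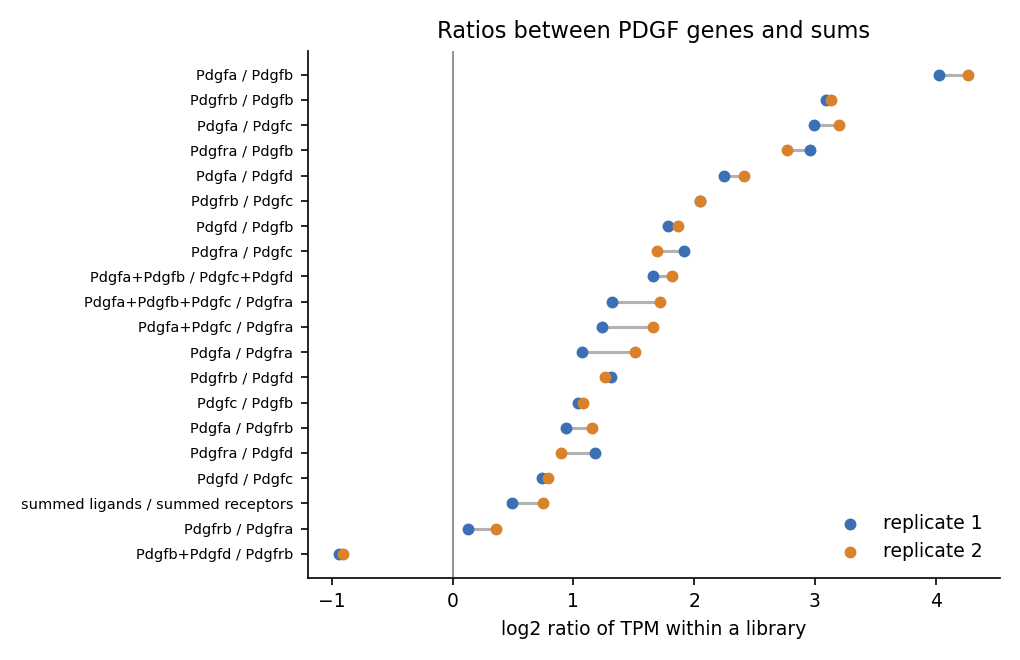
Log2 ratio of TPM within each library for the 15 pairs of PDGF genes and 5 sums, with 1 point per library joined by a line. All pairs, written with the higher gene first, lie right of 0, and the sum of Pdgfb and Pdgfd over Pdgfrb lies left of it at -0.94 and -0.91.

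Transcript shares give the part of a gene's TPM that the deposited estimate put on each annotated transcript. The 6 genes have 17 transcripts in the files, and 13 of them have the same length in the annotation used here for exons. Pdgfa was led by Pdgfa-202, at 57.76% in replicate 1 and 59.68% in replicate 2 (58.7% ± 1.4, n = 2). Pdgfa-204, which begins at an upstream first exon (chr5:138995734-138996087), held 26.65% and 29.46%, and Pdgfa-203, from a first exon still further upstream, 6.39% and 5.67%. Both upstream first exons lie within the span of the antisense gene 6330403L08Rik (chr5:138995056-139000577), while that of Pdgfa-202 ends outside it, at 138995037. How far reads of the antisense gene enter these shares was not tested. Pdgfa-202 encodes the 196-residue form, in which the last exon follows exon 5 directly. The proteins of Pdgfa-203 and Pdgfa-204, both annotated as protein-coding, were not compared with it.

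Exon 6 of Pdgfa, shown in capitals above, is held by Pdgfa-201 and by none of the other 6 listed transcripts. Pdgfa-201 was given 11.72 reads in replicate 1 and 0 in replicate 2, which is 0.90% and 0% of the gene. Its upper bounds were 1.18 and 0.417 TPM, against 17.77 and 20.43 TPM for Pdgfa-202. The estimate for Pdgfa-201 was thus at or near 0 in both libraries, though its upper bound in replicate 1 was above 1 TPM. A long form begun at an upstream first exon has no listed transcript, so its level is not given. Reads across the exon were not counted separately, and Pdgfa-201 also differs from Pdgfa-202 in the ends of its first and last exons.

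Pdgfc was led by a transcript annotated as a target of nonsense-mediated decay. Pdgfc-202, with the 59-base exon and its stop codon, held 78.27% in replicate 1 and 67.66% in replicate 2 (73.0% ± 7.5, n = 2). Pdgfc-201, which encodes the full 345 residues, held 21.20% and 31.10%, or 0.82 and 1.16 TPM. The transcripts also differ in the first exon, which has 383 bases in Pdgfc-202 and 1139 in Pdgfc-201. How far the share rests on the 59-base exon and how far on coverage of that first exon was not tested. On the level of Pdgfc-201 alone, Pdgfc would be below Pdgfb, at a log2 ratio of -0.90 in place of 1.06. Its upper bound of 1.15 TPM in replicate 1 was below the lower bound of Pdgfb, and in replicate 2 the bounds (0.791 to 1.64 TPM) overlapped.

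Pdgfd was led by Pdgfd-201, at 80.74% and 74.88% (77.8% ± 4.1, n = 2). Pdgfd-202, with the 18 extra bases, held 19.26% and 25.12%. Its last exon is also shorter, at 625 bases against 1951 for Pdgfd-201, and the length of Pdgfd-201 in the files (3052 bases) differs from that in the annotation used here (3131). Both encode a complete ligand.

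The receptors were almost wholly on 1 transcript each. Pdgfra-201 held 95.21% in replicate 1 and 91.01% in replicate 2. Pdgfra-202, also annotated as protein-coding, held 4.79% and 8.99%. Pdgfrb-201 held 100% in both libraries and Pdgfrb-202 was listed at 0, with upper bounds of 0.435 and 0.842 TPM. Pdgfb has 1 transcript in the files.

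**Figure D3:**
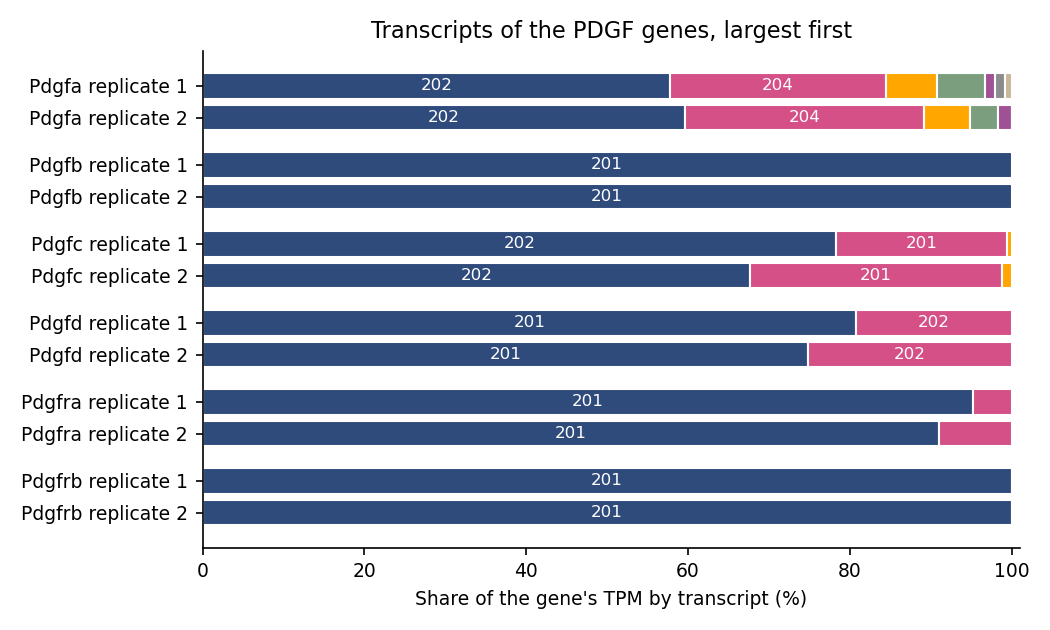
Share of each PDGF gene's TPM by transcript, with 1 bar per library and the number of the larger transcripts written on the bar. Colours give the order of size within a gene. Pdgfc-202 holds 78.27% and 67.66% of Pdgfc, while the receptor bars are almost a single block.

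On the same strand, few of the family's reads could belong to other genes. Whether the counting used strand is not named in any source used here, so the opposite strand was looked at as well. No 50-base window of the Pdgfa, Pdgfb, Pdgfc, Pdgfd or Pdgfrb transcripts occurs in transcripts of another gene on the same strand, and 0.173% of Pdgfra windows do. On the opposite strand, 21.3% of Pdgfa windows lie in the antisense gene 6330403L08Rik and 1.95% of Pdgfc windows in Gm16000. The estimated counts of Pdgfa and its antisense gene add up to whole numbers within 0.01, 1546 in replicate 1 and 1641 in replicate 2, as they would if the estimate divided reads between the genes. Those of Pdgfc and Gm16000 do too, at 326 and 300. Reads can be divided between opposite strands in this way where counting does not use strand, which was not tested directly. The antisense gene received 117.40 and 123.68 of these reads. That is 8.22% and 8.15% of the Pdgfa count. Adding these reads to Pdgfa could only raise the gene that is already highest. How many reads given to Pdgfa belong to the antisense gene was not tested. Gm16000 received 1.18 and 0 reads.

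Between the libraries the 6 genes lay less than 2-fold apart, though their median difference was larger than that of all tested genes. Counts scaled to each library's size were compared as replicate 2 over replicate 1, with a 95% interval for counting error. None of the 6 genes was 2-fold apart, as were 1.01% of those 13766 genes. With the sign set aside, the median log2 ratio was 0.19 for the PDGF genes and 0.10 for the tested genes. The interval excluded equality for 3 of the 6 genes, all lower in replicate 2, against 36.4% of tested genes in either direction. Pdgfd was among the 3 only by a margin that rounds to 0. A direction here is relative to the median of tested genes. In TPM that median was itself a log2 ratio of 0.15, so a gene of nearly equal TPM, such as Pdgfd, lies below it. Each side is 1 library, so no p-value is given.

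Pdgfra differed most. Its scaled counts were 2808 in replicate 1 and 2096 in replicate 2, a log2 ratio of -0.42 (interval -0.50 to -0.34), and 3.33% of tested genes had a lower ratio. Scaled by the spike-in RNA, which moved the median of all tested genes to 1.29, the ratio was 0.87. A scaling shifts all genes of a library alike, so the distance of 0.42 below the median is kept by construction. The other genes whose interval excluded 0 were Pdgfrb at -0.19 (-0.28 to -0.11) and Pdgfd at -0.18 (lower bound -0.37, upper bound just under 0), which on the spike-in scale are both 1.10. Pdgfb at -0.22 (-0.57 to 0.12), Pdgfc at -0.16 (-0.39 to 0.07) and Pdgfa at 0.04 (-0.06 to 0.15) had intervals that include 0. The family had a median log2 ratio of -0.19, beside -0.003 over all tested genes, whose central 95% lay between -0.48 and 0.48. All 6 genes were inside that range.

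Marker genes of several cell types were set beside these ratios. Their directions are on the same scale as those of the PDGF genes. Epicardial markers were lower in replicate 2 in 7 of 7 cases, with a median log2 ratio of -0.24, beside -0.003 over all tested genes. Tcf21 and Krt19 were lower by only -0.04. Fibroblast and cushion markers were lower in 6 of 8, also with a median of -0.24, with the collagen gene Col1a1 at -0.59. Their summed level was 2510 TPM in replicate 1 and 2296 TPM in replicate 2. Mural markers (pericytes and smooth muscle) were not lower, with 7 of 9 tested genes higher in replicate 2 and a median of 0.11. Endothelial markers were split, with 4 higher, 4 lower and a median of -0.04. Cardiomyocyte markers were split too, with 2 higher, 3 lower and a median that rounds to 0. Macrophage markers were lower in 5 of 6 cases. Their summed TPM was 145 and 158, of which Lyz2, the marker that was higher, held 73.28 and 97.81. Platelet markers were higher in 5 of 5 tested. None of these genes was 2-fold apart, beside 1.01% of all tested genes. Liver markers moved most, with a median of 2.32 and all 7 genes over 2-fold higher in replicate 2. Their summed level was 94.8 TPM in replicate 1 and 472 TPM in replicate 2. The part of any of these lists in the Pdgfra difference was not tested.

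**Figure D4:**
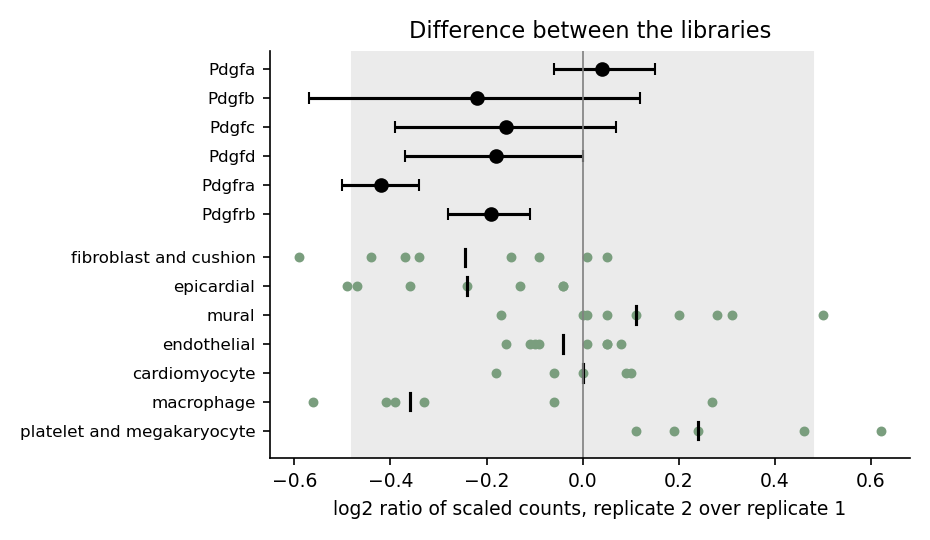
Log2 ratio of scaled counts, replicate 2 over replicate 1, for the 6 PDGF genes (black, bars are 95% counting intervals) and for 7 marker lists (green points are genes, black ticks are medians). Liver markers, with a median of 2.32, are not plotted. The grey band is the central 95% of all tested genes, from -0.48 to 0.48, and Pdgfra at -0.42 is the lowest of the family.

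Enzymes that act on the ligands were all present. All 7 listed processing genes were above 1 TPM in both libraries, as were 57.3% of all protein-coding genes, and their median was 10.5 TPM. Plat, the tissue plasminogen activator that cleaves latent PDGF-C, was highest, with 44.78 TPM in the first library and 44.12 in the second. The proprotein convertases Furin, at 11.07 and 12.17 TPM, and Pcsk7, at 11.29 and 11.81 TPM, followed. The proteases known to cleave PDGF-D were low, with Plau (urokinase) at 1.11 and 1.84 TPM and St14 (matriptase) at 2.21 and 2.03 TPM. Plat therefore stood above its substrate gene Pdgfc in both libraries, while Plau and St14 stood below Pdgfd.

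Downstream of the receptors, all 19 adaptor and signalling enzyme genes passed 1 TPM, beside 57.3% of all protein-coding genes. Their median was 19.6 TPM. The adaptors Crk at 71.0 ± 7.3, Grb2 at 68.9 ± 0.45 and Shc1 at 51.7 ± 3.5 TPM (n = 2) were highest, all above both receptors. Among coreceptor and turnover genes, 8 of 8 passed 1 TPM, and the median was 30.9 TPM. The coreceptor Nrp1 led at 59.8 ± 1.1 TPM, followed by Slc9a3r2, a scaffold protein gene, at 38.3 ± 4.1 and the phosphatase gene Ptpn2 at 36.3 ± 1.2 TPM. None of the genes in these 3 lists was 2-fold apart between libraries, which is near the share of 1.01% over all tested genes.

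The PDGF receptors belong to a class of receptor tyrosine kinases that also holds Kit, Csf1r and Flt3. Kit was at 7.21 and 7.40 TPM and Csf1r at 12.91 and 9.45 TPM, both below Pdgfra and Pdgfrb in each library. Of the 6 related receptor and ligand genes that matched, 4 reached 1 TPM, with Kitl (the Kit ligand) at 9.12 ± 0.45 and Csf1 at 7.86 ± 1.5 TPM. Il34 and Flt3 were below 1 TPM. For the receptor-like gene Pdgfrl the libraries gave 7.05 and 9.41 TPM.

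**Figure D5:**
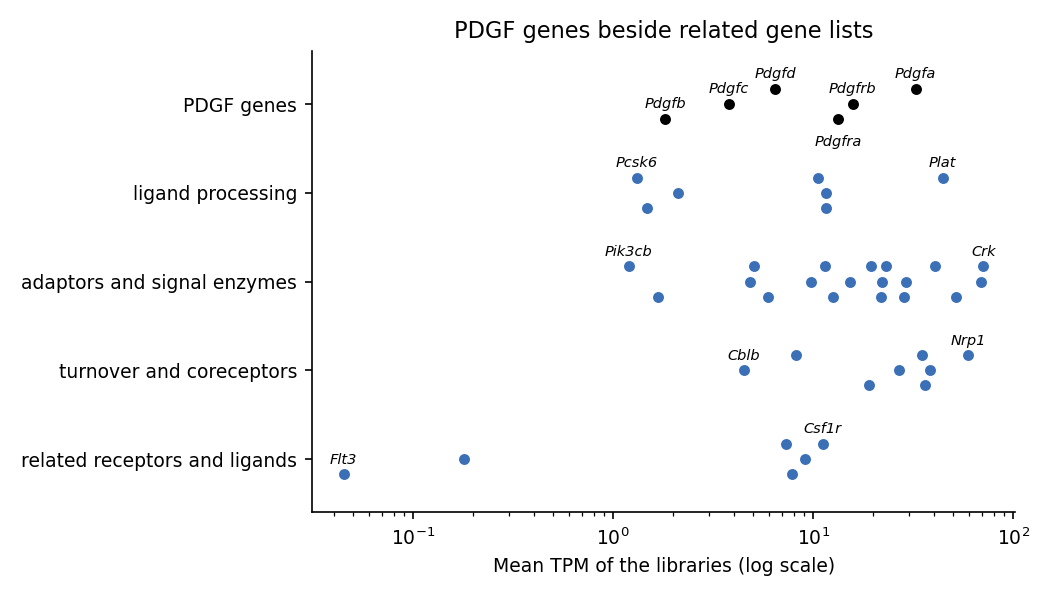
Mean TPM of the 2 libraries on a log axis for the PDGF genes (black, all named) and for 4 lists of related genes (blue, highest and lowest named). Points are offset vertically for legibility. The adaptor genes reach up to Crk at 71.0 TPM, and Flt3 is the lowest point.

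The tissue matched its label by the heart muscle markers, with Tnnt2 at 4312 and 5086 TPM. Endothelial markers were all detected, with a median of 47.9 TPM. Markers of platelets, a known store of PDGF-B, reached 1 TPM in 4 of 6 cases, with Pf4 at 40.30 and 48.04 TPM. Markers of oligodendrocyte precursors, another cell type known for Pdgfra, were at or near 0, with Olig2 listed at 0 in both libraries. Total estimated reads were 36733400 and 36060765, and spike-in RNA took 5.96% and 2.56% of them.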

How the data were processed

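Total RNA from 2 heart libraries, 10 ng of input each, was sequenced after mirVana extraction with spike-ins added, per the labels' protocols. The deposited expected counts are the authors' estimates per library, made on mm10 with the M4 annotation, per the deposited file descriptions. No source used here names the aligner, quantifier, strand setting or interval level. The deposited TPM values are scaled over all features of a library, spike-ins included. The deposited interval bounds of TPM were read as a signal that is never negative. The deposited percent columns give each transcript's share of its gene.

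Of 43346 Ensembl genes, 42462 matched GENCODE M21 (GRCm38) once versions were dropped. Spike-ins and numbered features stayed out of library sizes. Expected counts were rounded and scaled with edgeR 4.0.16 (TMM) in R 4.3.3. Ratios between libraries add a pseudocount of 0.5 and require a mean count of 50. Counting intervals are exact binomial (Clopper-Pearson) at 95% and cover counting error only, since reads are not independent molecules. Protein identity came from global alignment of translated coding sequences with Biopython 1.88, counted over columns without gaps. Intervals came from scipy 1.17.1, tables from pandas 2.3.3 and figures from matplotlib 3.10.9, under Python 3.11.15. The ratio and its interval were tested on simulated data.

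In a 1 kb transcript, 1 TPM stood for 29.3 and 27.4 reads. Genes and lists were chosen with earlier results of these data known. Named genes are the 6 PDGF genes, up to 3 highest of each list with those below 1 TPM where 4 or fewer, and leading transcripts with others above 10%. Plau, St14, Csf1r, Kit, Col1a1, Olig2 and the transcripts with a smaller share were named after their values were seen. Alternatives covered minimum level, scaling with DESeq2 1.42.0 among others, pseudocounts, posterior means and leaving out either library.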

Additional observations from a re-analysis of the deposited data

How the results depend on the processing

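With a minimum of 10 TPM, 3 of the 6 PDGF genes were detected in place of 6, with 5 TPM 4 were, and with coding transcripts only 5 were. Spike-in scaling put 5 genes at least 2-fold higher in replicate 2 in place of 0, and turned Pdgfra to 0.87, Pdgfrb to 1.10 and Pdgfd to 1.10 on the log2 scale. This scaling moved the median of all tested genes to 1.29, and relative to it the ratios were -0.42, -0.19 and -0.18. These distances cannot change, since a scaling shifts all genes of a library alike. Counts not divided by length gave log2 ratios of -0.72 for Pdgfa over Pdgfra, -0.03 for Pdgfrb over Pdgfra, -0.99 for summed ligands over summed receptors, -1.90 for Pdgfb plus Pdgfd over Pdgfrb and 1.10 for Pdgfc over Pdgfb. Such counts grow with transcript length, and effective lengths in replicate 1 ran from 1585 bases (Pdgfa) to 6455 (Pdgfra). With coding transcripts only, an alternative chosen after seeing the data, Pdgfc over Pdgfb turned to -0.90. Leaving out each replicate gave 0.13 to 0.36 for Pdgfrb over Pdgfra and 1.07 to 1.51 for Pdgfa over Pdgfra. The summed ratio then ran from 0.49 to 0.75. The count of 15 separate pairs could not change, since each pair already had to be apart in both libraries. TPM rescaled over protein-coding genes raised all levels, Pdgfa to 39.6. Adding the antisense partner's reads, also chosen afterwards, gave Pdgfa 35.2 TPM. Depth limits Pdgfb most, at 155 and 137 reads.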
